A study of Homo sapiens with 14 samples.

Results

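The sort of 3D cardiomyocyte cultures into troponin-negative and troponin-positive cells is described here across a pooled knockout library, from 6 of the 14 samples of the series. The members are the 3 libraries of TNNT2- cells and the 3 of TNNT2+ cells, chosen by their labels and paired by replicate number. H9, an established human pluripotent stem cell line whose genotype is labelled WT, carried a Cas9 gene induced by doxycycline and a pool of guides against transcription factors. All 6 samples share that line, that library and a 3D differentiation to day 25, and differ by TNNT2 expression and by differentiation. Per the protocols, 3 biological replicates were differentiated and each was sorted into both fractions. The other samples of the series are 6 libraries of the same sort after a 2D differentiation and 2 libraries of undifferentiated cells. Guides were counted in genomic DNA, so no transcript was measured and the identity of the fractions could not be checked against marker genes. TNNT2 itself was not a target.

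TNNT2 encodes cardiac troponin T, a thin-filament protein that marks cardiomyocytes in cultures of pluripotent cells. Cardiac differentiation passes from pluripotency through mesendoderm (EOMES, T) and cardiac mesoderm (MESP1) to cells that express GATA4, NKX2-5, TBX5, HAND and MEF2 factors, and the TNNT2- remainder can hold stromal, endothelial, endodermal or undifferentiated cells. In a sorted knockout pool, each guide is a tag of the cells that carry it. A guide more abundant in TNNT2- than in TNNT2+ cells marks a target whose loss was found more often outside the troponin-positive fraction, and the reverse marks a target whose loss was found more often inside it. A library gives only shares, so a fall of 1 guide and a rise of the others cannot be told apart.

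The pool comprised 11364 guides with 1633 targets, 1574 of which were covered by 7 guides each, and 100 of the guides served as controls. Each 3D library held between 23691473 and 31671019 reads, so that depth was alike, but the guides were not equally spread. In TNNT2- cells 0.739%, 11.1% and 27.6% of guides had fewer than 10 reads in replicates 1, 2 and 3, and in TNNT2+ cells 2.19%, 2.27% and 43.6%. TNNT2- replicates 2 and 3 and TNNT2+ replicate 3 are called thin libraries here. The number of equally abundant guides that would give the same evenness (the inverse Simpson index of guide shares) was 7416, 5004 and 4446 in TNNT2- and 7019, 7139 and 3636 in TNNT2+ libraries. Of the 100 control guides, 43 had fewer than 10 reads in TNNT2+ replicate 3, close to the share of all guides there. In the thin TNNT2- libraries fewer controls were low than guides in general, with 17 of 100 in replicate 3 and 2 of 100 in replicate 2. The libraries that are not thin had at most 1 low control each. In all, 42.5% of guides (4827) had at least 10 reads in all 6 libraries, and 26 guides had fewer in all 6.

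**Figure D1:**
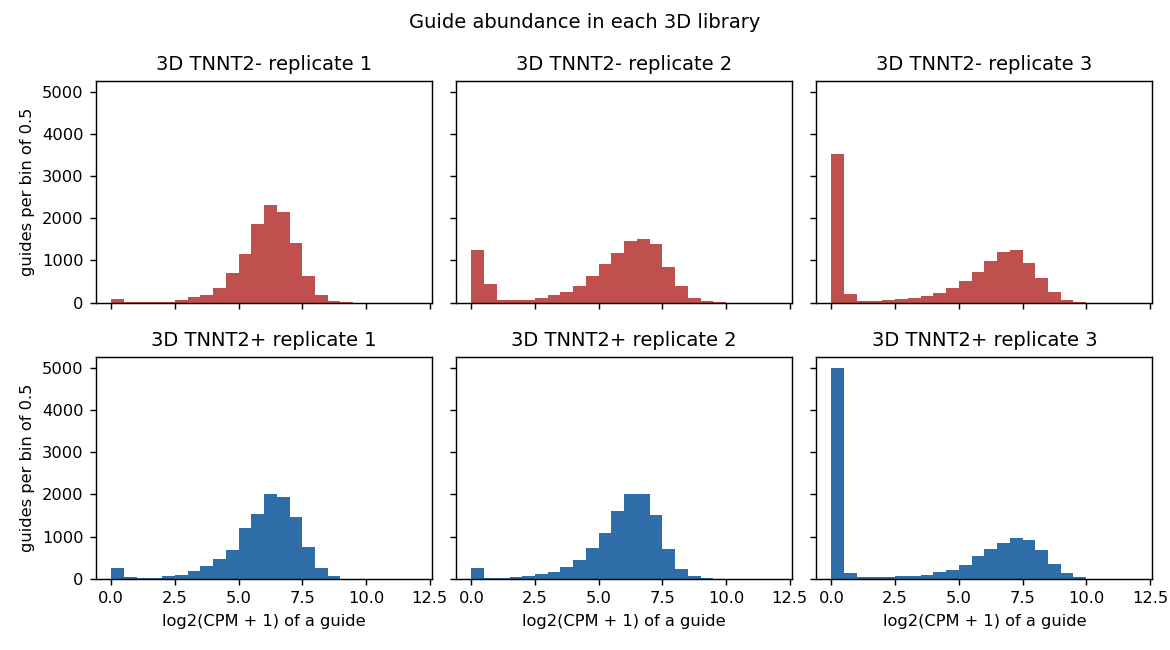
Guide abundance in each 3D library, as the number of guides (vertical axis) per bin of log2(CPM + 1) (horizontal axis; CPM is a guide's reads scaled to its library's total); columns are replicates 1 to 3, rows are fractions. A separate group of guides near 0 is tall in TNNT2- replicate 3 (27.6% of guides under 10 reads) and TNNT2+ replicate 3 (43.6%), smaller in TNNT2- replicate 2 (11.1%), and slight in the other libraries.

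The guides missing from thin libraries were in part the same. Of the 3138 guides under 10 reads in TNNT2- replicate 3, 59.1% were also under 10 reads in TNNT2+ replicate 3, where 43.6% of all guides were. Of the 4952 such guides of TNNT2+ replicate 3, 37.5% were low in TNNT2- replicate 3, against 27.6% of all guides. Of the 1258 low guides of TNNT2- replicate 2, 63.8% were low in TNNT2+ replicate 3 and 53.1% in TNNT2- replicate 3. Day 0 replicate 2, the thin library of undifferentiated cells, had 32.5% of all guides under 10 reads, but 53.2% of those low in TNNT2- replicate 2, 49.9% of those low in TNNT2- replicate 3 and 39.9% of those low in TNNT2+ replicate 3. These are counts over guides of single libraries and were not tested. Between the fractions, the share of guides under 10 reads averaged 13.1% ± 13.6 (SD, n = 3) for TNNT2- cells against 16.01% ± 23.9 (SD, n = 3) for TNNT2+ cells and higher in 1 of 3 pairs (exact sign-flip permutation test within pairs, 2-sided, p = 0.75). The Gini index of guide abundance differed by 0.00249 (p = 1, the same exact test). With 3 pairs that test cannot give a p below 0.25.

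Each replicate pair gave its own sort ratio for every guide, taken as log2(value + 10) in TNNT2- minus the same in TNNT2+ cells, where value is the deposited normalized abundance. Over 11331 guides the SD of this log2 difference was 1.29 in pair 1, 2.44 in pair 2 and 5.12 in pair 3. The 100 control guides had SDs of 1.004, 1.59 and 5.39. In pair 1, 33.3% of guides differed more than 2-fold between the fractions, as did 29% of controls. The same shares were 56.2% and 44% in pair 2, and 70.4% and 73% in pair 3. In pair 3, 43.1% of guides and 45% of controls differed more than 16-fold, so a single guide's ratio of that size was common there without a targeted gene. Taking the median over the guides of a gene reduced the SD to 0.473, 0.923 and 2.21 log2 units.

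The pairs shared little of their order. Across guides, the log2 differences of pairs 1 and 2, 1 and 3, and 2 and 3 correlated at Pearson r = 0.009, 0.006 and 0.004, and across 1621 gene medians at 0.035, -0.049 and 0.024. These are descriptions over guides and genes of the same 6 libraries, which are not independent replicates. The sign was the same in all 3 pairs for 25.8% of guides, 20% of control guides and 23.6% of genes. Guides against the same gene resembled each other hardly more than guides against different genes, with intraclass correlations of 0.0042, 0.0037 and 0.0036 in pairs 1, 2 and 3. Among the 4827 guides with at least 10 reads in all 6 libraries the correlations between pairs were 0.024, 0.009 and 0.013. The fitted difference of a guide had a median standard error of 1.56 log2 units, beside an SD of 1.95 over all guides. The value of 0.0042 belongs to pair 1, which holds no thin library.

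**Figure D2:**
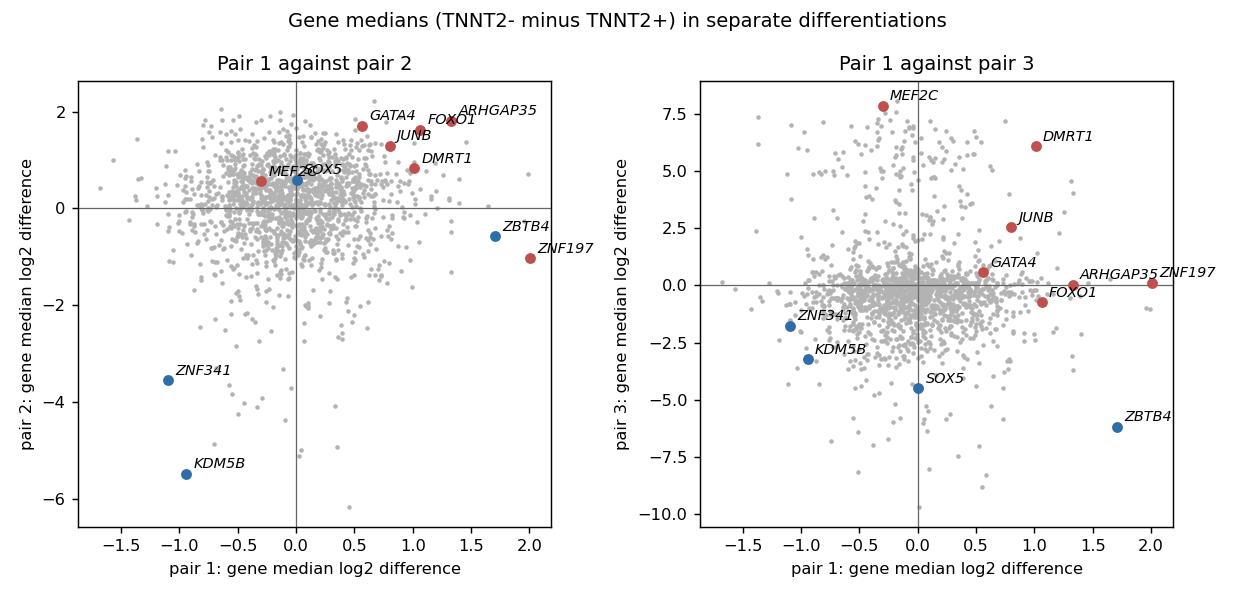
Median log2 difference over the guides of each gene (TNNT2- minus TNNT2+) in pair 1 against pair 2 (left) and against pair 3 (right), 1 grey point per gene of 1621, with selected genes coloured by the sign of their value in the fit of all pairs (red above 0, blue below). The clouds show no slope (r = 0.035 and -0.049), KDM5B lies below 0 in every pair, and the vertical range of pair 3 is far wider than the range of pair 1.

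The paired test fitted each guide over the 3 differentiations and asked which genes had guides ranked toward 1 fraction. It used limma on log2(value + 10) with the replicate number as a block, and combined the guides of a gene by rank aggregation with Benjamini-Hochberg adjustment at 0.05 over 1621 genes. The gene p-values treat guides of the same 6 libraries as independent, so they do not directly measure the spread between differentiations. Toward TNNT2- cells 0 genes (0%) passed, and toward TNNT2+ cells 1 gene (0.0617%), KDM5B, passed. Before adjustment, 75 genes (4.63%) had p under 0.05 toward TNNT2- cells, and 95 (5.86%) had it toward TNNT2+ cells. No single guide of 11331 passed in either direction (0%), with 54 (0.477%) and 88 (0.777%) at an unadjusted p under 0.05. With edgeR and with DESeq2 0 genes passed in either direction, while for single guides edgeR called 0 and DESeq2 called 86 toward TNNT2- and 228 toward TNNT2+. The median gene lay at -0.13 on the log2 scale as deposited, and at 0.087 with TMM factors, and 44.0% against 55.3% of genes lay above 0, so values close to 0 have no settled sign.

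KDM5B, a demethylase that removes methyl groups from lysine 4 of histone H3 and lies on chromosome 1 from 202724495 to 202808421 (GRCh38), was called as depleted from TNNT2- cells. As reads scaled to the library total (CPM), its 7 guides summed to 685, 121 and 384 CPM in TNNT2- replicates 1, 2 and 3 and to 917, 700.3 and 1190.5 CPM in TNNT2+ replicates. Every TNNT2- library lay below every TNNT2+ library, an order shown by 68 genes (4.19%), while 70 genes (4.32%) had every TNNT2- library above. The KDM5B ratio TNNT2- over TNNT2+ was 0.747, 0.173 and 0.322 in the pairs. The median log2 difference was -2.97 ± 1.53 (SD over 7 guides), 0 of 7 guides were higher in TNNT2- cells, and limma with rank aggregation gave an adjusted p of 0.00211. The pair medians were -0.94, -5.47 and -3.21. Pair 1, the pair without a thin library, gave the value closest to 0, with 5 of 7 guides lower in TNNT2- cells. In TNNT2- replicates 2 and 3, 2 of the 7 guides each had fewer than 10 reads, and in TNNT2+ libraries none had. In TNNT2- replicate 2, KDM5B_1 and KDM5B_5 were also low, with 11 and 28 reads. The pair 2 median was the value of KDM5B_7, with 9 reads in TNNT2- against 1465 in TNNT2+ cells. KDM5B_3, picked here for its coverage, was the best covered KDM5B guide, with at least 1156 reads in each library, at 101, 48.8 and 127 CPM against 183, 151 and 378 CPM, and its log2 differences of -0.99, -1.20 and -2.76 were below 0 in each pair. The call ended without the block (adjusted p = 0.312, limma), with edgeR (0.0914), DESeq2 (0.358) and array weights (0.135), and without pair 1, 2 or 3 (0.705, 0.577 and 0.118, with values of -4.13, -1.87 and -2.92). With the pairs as units, limma on the gene mean and on the gene sum did not call KDM5B either. Among guides with at least 10 reads in all 6 libraries the value was -1.90 (adjusted p = 0.787, limma), a filter that removes guides lost from 1 fraction.

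FOXO1 and ARHGAP35 showed the clearest excess in TNNT2- cells in pairs 1 and 2, where every guide of both genes was higher in TNNT2- cells. For FOXO1_7 in pair 2 this rests on 2 reads against 0, too few to show a direction. FOXO1, a forkhead factor that insulin and AKT signalling keep out of the nucleus, lies on chromosome 13 from 40555667 to 40666641 (GRCh38). Its pair medians were 1.06, 1.63 and -0.73, with 7, 7 and 3 of 7 guides higher in TNNT2- cells. Its guides summed to 2132, 3702 and 1620.0 CPM in TNNT2- and 975, 1418 and 945 CPM in TNNT2+ libraries. The fractions did not overlap, with every TNNT2- library above, as in 4.32% of all genes. In pair 3 the guides split, with FOXO1_1 at 709 against 4.45 CPM and FOXO1_7 at 0 against 194 CPM. Over all pairs the value was 0.86 ± 2.09 (SD over 7 guides; adjusted p = 0.573, limma and rank aggregation). FOXO1 passed without the block (adjusted p = 0.00634, limma), without pair 3 (0.0192, value 1.32) and among guides with at least 10 reads in all 6 libraries (0.00015, value 2.52), a filter that can remove guides that fell. ARHGAP35, which encodes a GTPase-activating protein, lies on chromosome 19 from 46860997 to 47005077 (GRCh38). Its guides summed to 2121, 1943 and 892 CPM in TNNT2- and 838, 726 and 933 CPM in TNNT2+ libraries. Pairs 1 and 2 had ratios of 2.53 and 2.67, and pair 3 had 0.955. Its value was 1.37 ± 1.95 (adjusted p = 0.943, limma and rank aggregation), and without pair 3 it passed at 1.80 (adjusted p = 0.00171, limma).

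**Figure D3:**
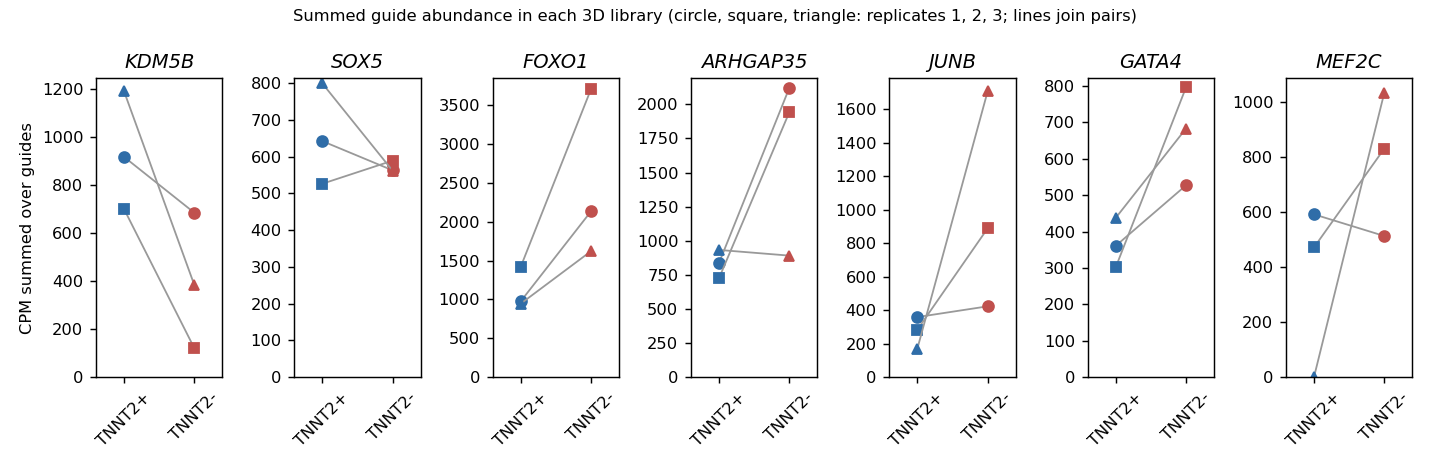
CPM summed over the guides of 7 genes (vertical axes from 0, separate for each gene) in each TNNT2+ (blue) and TNNT2- (red) library, with grey lines joining the fractions of 1 differentiation. KDM5B is lower in TNNT2- cells along all 3 lines, FOXO1, JUNB and GATA4 are higher along all 3, and the MEF2C value of TNNT2+ replicate 3 is 1.18 CPM.

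Among the core cardiac factors, GATA4 and MEF2C led toward TNNT2- cells without passing the test. GATA4 is a zinc finger factor needed for heart formation in the mouse. It had summed values of 527, 795 and 683 CPM in TNNT2- and 361, 302 and 437 CPM in TNNT2+ libraries. GATA4 thus did not overlap between the fractions, an order shown by 4.32% of all genes. Its pair medians were 0.56, 1.71 and 0.57 and its value was 1.93 ± 2.21 (SD over 7 guides; adjusted p = 0.943, limma and rank aggregation). TNNT2+ replicate 3 had 4 of 7 GATA4 guides under 10 reads, and among guides with at least 10 reads in all 6 libraries the GATA4 value turned to -0.96. MEF2C, a MADS-box factor of muscle genes, had summed values of 514, 832 and 1035 CPM in TNNT2- and 593, 472 and 1.18 CPM in TNNT2+ libraries. All 7 MEF2C guides were higher in TNNT2- cells in the fit (2.51 ± 0.76; adjusted p = 0.943), but the pair medians were -0.30, 0.56 and 7.85. The TNNT2+ library of pair 3 had 6 of 7 MEF2C guides under 10 reads, and without that pair the value was 0.097. The other fixed cardiac genes lay closer to 0. NKX2-5 had 0.44 ± 1.71, TBX5 -0.15 ± 1.91, HAND1 -0.64 ± 1.38, HAND2 -0.23 ± 1.93 and ISL1, a factor of second heart field progenitors, -1.22 ± 1.14. Their pair medians had mixed signs for NKX2-5 (0.029, 0.95 and -0.57), TBX5 (-0.68, 0.039 and -0.56) and HAND1 (0.49, 0.33 and -2.17), and lay below 0 throughout for HAND2 (-0.018, -0.93 and -0.47) and ISL1 (-0.12, -0.85 and -1.48).

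JUNB, a subunit of the AP-1 transcription factor, was the 1 of 11 AP-1 genes whose pair medians were all above 0, beside 9.69% of all genes. The medians of 4 of 11 (BATF, BATF3, FOS and FOSB) were below 0 in all pairs, beside 13.9% of all genes. The JUNB guides summed to 423, 888 and 1705 CPM in TNNT2- and 359, 284 and 171 CPM in TNNT2+ libraries. The JUNB ratio was 1.18, 3.13 and 10.001 in the pairs. The value was 1.17 ± 3.01 (SD over 7 guides; adjusted p = 0.943, limma and rank aggregation). The guide JUNB_6 had 67.4, 225 and 240.2 CPM in TNNT2- and 0.182, 0 and 0.0816 CPM in TNNT2+ libraries, and so was at or under 5 reads in each TNNT2+ library. The other JUNB guides had fitted log2 differences from -1.46 to 3.54.

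Some of the single guides with the smallest p-values were likewise nearly absent from 1 fraction, while NR6A1_7 and IRF2_6 were abundant in both. None passed (smallest adjusted p = 0.817, limma). NR6A1_7, against an orphan nuclear receptor of germ cells and early embryos, was the most abundant guide of TNNT2- replicate 1, with 0.139% of its reads. It had 1386, 1799.7 and 1175 CPM in TNNT2- and 339.7, 441 and 269 CPM in TNNT2+ libraries and differed by 1.76 ± 0.274 (SE) on the log2 scale. The other 6 NR6A1 guides had fitted differences from -2.87 to 2.52, and the median over the 7 guides was -0.71. RFX8_2 had 61.9, 20.3 and 32.8 CPM in TNNT2- and 2.58, 0 and 0.122 CPM in TNNT2+ libraries. ZFP62_1 had 5.53, 32.8 and 22.6 CPM in TNNT2- libraries and 0 reads in each TNNT2+ library, which allows up to 0.109, 0.119 and 0.122 CPM (3 counts each, counting error only). ZNF773_6 had 44.7, 46.5 and 6.03 against 0.254, 0.119 and 0.0816 CPM. Toward TNNT2+ cells, ZNF329_6 had the smallest p, with 0.0382, 0.211 and 0.158 CPM in TNNT2- and 12.3, 101 and 29.9 CPM in TNNT2+ libraries. The median over the 7 ZNF329 guides was -0.087. ZNF25_6 had 7.40, 0.211 and 0.189 CPM in TNNT2- and 183, 47.9 and 132 CPM in TNNT2+ libraries. IRF2_6, against an interferon regulatory factor, was abundant in both fractions, at 216, 143 and 232 CPM against 483, 344 and 619 CPM. In the 3 pairs of the 2D sort the log2 differences were 0.36, 0.20 and -0.34 for NR6A1_7 and -1.31, -0.60 and 0.66 for JUNB_6.

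**Figure D4:**
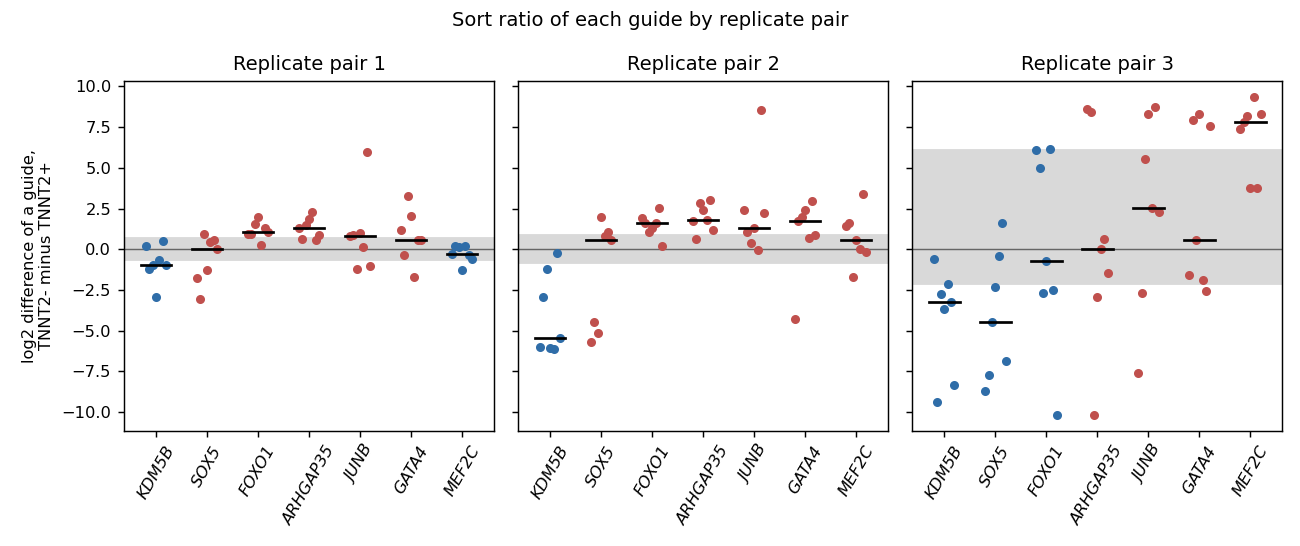
Log2 difference of each guide (TNNT2- minus TNNT2+, points) for 7 genes in replicate pairs 1, 2 and 3, with the median as a black line, red where the median is above 0 and blue where it is not; the grey band holds the 25th to 75th percentiles of the 100 control guides. All 7 FOXO1 and ARHGAP35 guides lie above 0 in pairs 1 and 2 and scatter on both sides in pair 3, whose control band is the widest.

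The other leading genes toward TNNT2- were POGK, a KRAB-domain protein derived from a transposase, and DMBX1, a homeobox factor of the developing brain. POGK had 649.8, 456 and 458 CPM in TNNT2- and 346, 448 and 133 CPM in TNNT2+ libraries (median log2 difference 1.77 ± 2.14). DMBX1 had 229, 291 and 477 against 171, 171 and 188 CPM (2.06 ± 2.03). The pair medians were 1.31, 0.17 and 4.54 for POGK and -0.022, 1.92 and 0.32 for DMBX1, so that DMBX1 was not above 0 in pair 1, and for each gene 5 of 7 guides had fewer than 10 reads in TNNT2+ replicate 3. For both, limma and rank aggregation gave an adjusted p of 0.943. Toward TNNT2+, SOX5, an HMG-box factor of cartilage, had a value of -2.10 ± 2.54 (adjusted p = 0.242, limma and rank aggregation), but its pair medians were 0.0057, 0.59 and -4.50 and its summed CPM overlapped between fractions, at 562, 589 and 561 against 642, 526 and 799 CPM. CREB3L1, a membrane-bound bZIP factor of the endoplasmic reticulum, had pair medians of -0.44, -2.19 and -4.15 (value -2.58 ± 2.92; adjusted p = 0.251). ZZZ3, a subunit of the ATAC histone acetyltransferase complex, had 0.081, 0.029 and -6.37, so that pair 3 alone was far from 0 (value -2.91 ± 2.63). FOXC2, a forkhead factor of mesoderm and lymphatic vessels, had pair medians of -0.68, -3.30 and -1.23, the winged-helix factor RFX1 -0.34, -4.09 and -0.57, the zinc finger factor HIVEP2 -0.53, -0.36 and -3.28 and ZNF329 -0.10, 0.22 and 1.66, whose value in the fit was -0.087 ± 3.02. None of these passed, with adjusted p from 0.683 to 0.708 for the last 5 genes.

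Gene medians lay above 0 in all 3 pairs for 157 genes (9.69%) and below 0 in all 3 for 225 (13.9%). Ranked by the pair closest to 0, the leaders toward TNNT2- were DMRT1, JUNB, EPAS1, ZGPAT, NR1I3 and ETS1. EPAS1, the hypoxia-inducible factor HIF-2α, had pair medians of 1.26, 0.69 and 3.22. ETS1, a factor of endothelial and blood cells, had 0.70, 0.60 and 1.94, and ZGPAT, a zinc finger repressor, had 0.67, 2.21 and 1.07. DMRT1, a factor of the gonad, had 1.01, 0.83 and 6.07, and NR1I3, the nuclear receptor CAR of the liver, had 0.62, 0.72 and 0.90. Summed CPM did not always follow the medians: the ratio TNNT2- over TNNT2+ was 0.761, 1.23 and 0.935 for DMRT1, below 1 in 2 of 3 pairs. It was 1.10, 0.820 and 2.54 for EPAS1 and 1.30, 0.892 and 1.16 for NR1I3, below 1 in pair 2. For ZGPAT and ETS1 it was above 1 in all 3 pairs. Their adjusted p lay between 0.943 and 0.952 by limma and rank aggregation. Toward TNNT2+ the leaders were ZNF341, ZNF274, KDM5B, ZNF793, LHX5 and ARNTL. ZNF341, a zinc finger activator of STAT3, had -1.09, -3.54 and -1.75. It had 384, 290.2 and 455 CPM in TNNT2- and 589, 673 and 644 CPM in TNNT2+ libraries. These do not overlap, an order shown by 4.19% of all genes. ZNF274 had -1.05, -1.10 and -1.28, the LIM homeobox factor LHX5 -0.81, -1.43 and -0.86, ZNF793 -0.82, -1.16 and -0.87 and the clock factor ARNTL -1.05, -0.86 and -0.73. The summed CPM ratio was above 1 in pair 2 for ZNF274 (0.560, 1.09 and 0.833) and in pair 3 for ZNF793 (0.613, 0.555 and 1.32). Apart from KDM5B the smallest adjusted p among these was 0.711, for ZNF341.

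Pair 1 joins the libraries with the fewest missing guides, and its leading genes were described for that reason. The highest medians were those of ZNF197, GMEB2, ZNF7 and ZBTB4, at 2.00, 1.99, 1.95 and 1.70. In pair 2 the same genes had -1.03, 0.70, -0.26 and -0.58, and in pair 3 0.11, -1.05, -0.98 and -6.16. None of these 4 kept its sign in all pairs. The lowest medians in pair 1 were those of ZBTB7B, ZNF99, ZNF684 and BARX1, at -1.68, -1.57, -1.43 and -1.38. Of these, ZNF684 stayed below 0 in pairs 2 and 3 (-0.25 and -1.03), while ZBTB7B, ZNF99 and BARX1 were above 0 in pair 2, at 0.43, 0.996 and 0.25.

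Gene lists for the stages and cell types of a cardiac culture gave no called member except KDM5B among the chromatin regulators. Over all 1621 genes 714 had a median above 0, with a median of -0.13 and pair medians of -0.054, 0.21 and -0.34. Among core cardiac factors 10 of 21 genes had a median above 0, with a list median of -0.0014 and pair medians of -0.075, 0.039 and -0.093. Among mesendoderm and cardiac mesoderm factors 8 of 15 genes had a median above 0, with a list median of 0.033 and pair medians of -0.038, -0.061 and -0.45. Their 2 leading members, SNAI1, a zinc finger factor of epithelial-mesenchymal transition, and CDX1, a caudal homeobox factor, lay at 2.24 ± 3.01 and -0.93 ± 2.23. The pair medians were -0.076, -0.14 and 6.85 for SNAI1 and -0.038, -0.12 and -2.93 for CDX1, so that pair 3 alone was far from 0. In TNNT2+ replicate 3, 5 of 7 SNAI1 guides had fewer than 10 reads. MESP1 and EOMES lay at -0.53 ± 1.32 and 0.053 ± 1.79. Among WNT, NODAL, BMP and Notch effectors 1 of 13 genes had a median above 0, with a list median of -0.19 and pair medians of -0.11, 0.49 and -0.075. In the single pairs 5, 10 and 5 of the 13 lay above 0, beside 735, 979 and 576 of all 1621 genes. The 1 gene above 0 in the fit was SMAD5, a BMP effector, at 2.62 ± 2.28 (SD over 6 guides). The SMAD5 pair medians were -0.19, 1.10 and 5.62, and 4 of its guides had fewer than 10 reads in TNNT2+ replicate 3. Its summed CPM ratio TNNT2- over TNNT2+ was 0.975, 1.69 and 0.929. SMAD4, the shared SMAD of BMP and NODAL signalling, lay at -0.10 ± 2.30 although its pair medians were 0.87, 0.13 and 0.22. Its summed CPM of 523, 536 and 687 against 201, 401 and 424 do not overlap, an order shown by 4.32% of all genes. Among the 4 FOXO genes 1 of 4 genes had a median above 0, with a list median of -0.47 and pair medians of 0.089, 0.29 and -1.09. FOXO4, at -0.44 ± 2.94, had pair 1 and pair 2 medians of -0.087 and -0.72.

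Lists for other cell types held no called gene. Among epicardial and stromal factors 7 of 13 genes had a median above 0, with a list median of 0.20 and pair medians of -0.14, 0.69 and 0.010. TEAD3, a partner of YAP, lay at 1.24 ± 2.43 and MEOX2 at -0.36 ± 2.40. Among endothelial and blood factors 7 of 14 genes had a median above 0, with a list median of 0.052 and pair medians of 0.040, 0.42 and -0.15. LYL1 lay at 1.99 ± 2.26 and FLI1 at -0.43 ± 3.07. Among endoderm factors 6 of 11 genes had a median above 0, with a list median of 0.012 and pair medians of 0.20, -0.15 and -0.29, with FOXA3 at -1.45 ± 0.996. Among neural and skeletal muscle factors 7 of 14 genes had a median above 0, with a list median of 0.069 and pair medians of -0.24, 0.23 and -0.46. NEUROD1 lay at 1.32 ± 3.11 and OLIG2 at 0.99 ± 1.398. The NEUROD1 pair medians were -0.68, -1.11 and 5.53, and 5 of its 7 guides had fewer than 10 reads in TNNT2+ replicate 3. Its summed CPM ratio TNNT2- over TNNT2+ was 0.549, 0.514 and 0.740, so its direction is not settled. Among other mesoderm and second heart field factors 5 of 15 genes had a median above 0, with a list median of -0.50 and pair medians of 0.0036, -0.11 and -0.93, with HOXB1 at -2.44 ± 2.69. Among AP-1 factors 4 of 11 genes had a median above 0, with a list median of -0.41 and pair medians of -0.31, 0.24 and -0.73, with BATF, a lymphocyte AP-1 factor, at -2.87 ± 1.43.

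Pluripotency and growth genes were also without a call. Among pluripotency factors 3 of 11 genes had a median above 0, with a list median of -0.50 and pair medians of -0.30, 0.14 and -0.83. NANOG, a homeobox factor of pluripotent cells, had summed values of 554, 330.2 and 113 CPM in TNNT2- and 638, 602 and 711 CPM in TNNT2+ libraries. These do not overlap, an order shown by 4.19% of all genes. All 7 NANOG guides were lower in TNNT2- cells in the fit (-2.56 ± 1.16; adjusted p = 0.711, limma and rank aggregation), and its pair medians were -0.51, -0.32 and -6.42. In TNNT2- replicate 3, 5 of its 7 guides had fewer than 10 reads. PRDM14 had 432, 199 and 322 against 593, 519 and 831 CPM, and POU5F1 lay at -0.20 ± 2.74 with pair medians of -0.30, 0.89 and -1.93. Among commonly essential factors 9 of 16 genes had a median above 0, with a list median of 0.061 and pair medians of -0.24, 0.48 and -0.24. NFYA, a subunit of the CCAAT-binding factor, lay at -2.71 ± 1.497 with pair medians of 0.094, 0.92 and -8.00, and its partner NFYB had -0.53, -1.23 and -1.81. Among chromatin regulators 3 of 11 genes had a median above 0, with a list median of -0.50 and pair medians of 0.028, 0.47 and -0.67. The 1 of 11 called toward TNNT2+ was KDM5B, which is also the 1 gene called of all 1621 (0.0617%). Lists were chosen with earlier results of these data known, so this share says nothing about chromatin regulators as a group.

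**Figure D5:**
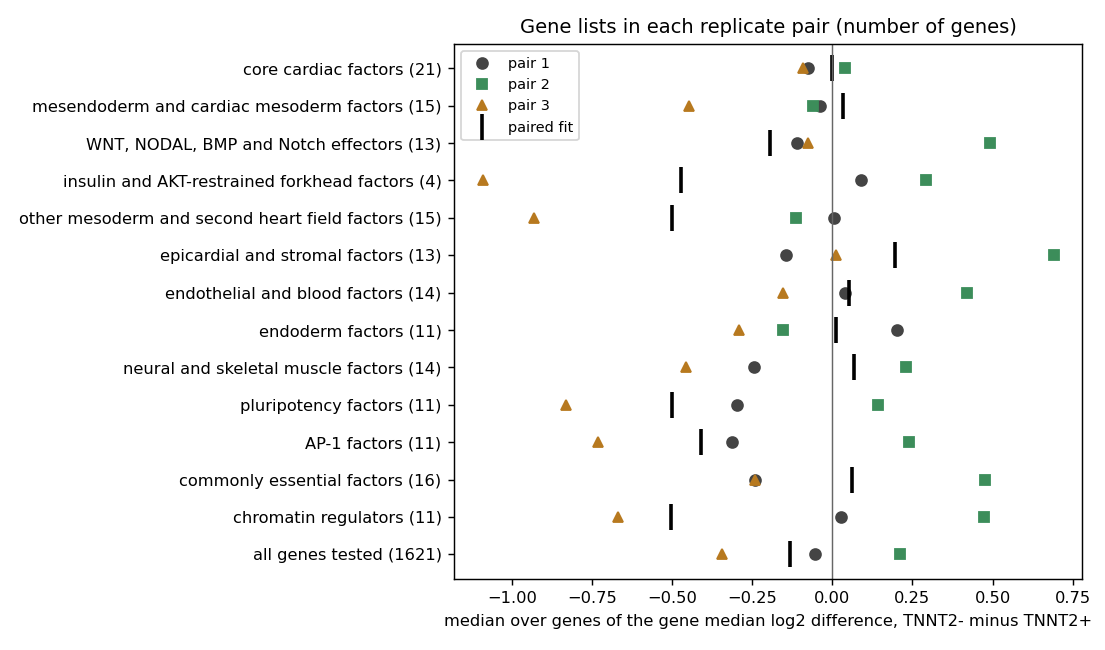
Median over the genes of each list (rows, number of genes in brackets) of the gene median log2 difference, TNNT2- minus TNNT2+ (horizontal axis), in pairs 1 (circles), 2 (squares) and 3 (triangles) and in the fit of all pairs (bars). The bottom row gives all 1621 genes, at -0.054, 0.21 and -0.34 in the pairs; core cardiac factors lie between -0.093 and 0.039 in all pairs.

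Close relatives of the leading genes, chosen after their values were seen, were set beside them. MEF2A and MEF2D had pair medians of -0.26, 0.24 and -0.45 and of 0.19, -0.60 and -0.073, against -0.30, 0.56 and 7.85 for MEF2C. GATA6, which shares cardiac roles with GATA4, had -0.26, -0.70 and -0.31, GATA5 -0.37, -1.15 and 0 and the blood factor GATA2 0.31, 0.21 and 1.87. GATA1 had 0.12, -0.37 and -1.74 and GATA3 0.42, 0.47 and -0.84, with mixed signs. GATA2 was thus above 0 in all pairs, as was GATA4. GATA6 was below 0 in all pairs while its value in the fit was 0.59, so its sign is not settled. FOXO3 had -0.32, 0.92 and -2.44, FOXO4 -0.087, -0.72 and -0.66 and FOXO6 0.27, -0.33 and -1.45, against 1.06, 1.63 and -0.73 for FOXO1. JUN and JUND had -0.48, 0.67 and -0.73 and -0.040, 1.05 and -0.41, against 0.80, 1.29 and 2.53 for JUNB. TEAD1 had -0.58, 0.69 and 6.94 and TEAD3 0.89, 1.89 and -0.29, while TEAD2 (-0.69, -0.54 and -1.47) and TEAD4 (-0.14, -0.18 and -0.73) lay below 0 in all pairs. These genes were not tested against each other, and none was called.

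The 3D sort was compared with the 2D sort by testing, for each guide, the 3 within-pair differences of one against those of the other. No gene passed in either direction (0%; limma and rank aggregation over 1621 genes), with 85 genes at an unadjusted p under 0.05 toward a larger and 82 toward a smaller ratio in 3D. KDM5B came closest, with a difference of -3.16 and an adjusted p of 0.0533, beside 2D pair medians of 0.37, 0.12 and 0.30. Without 3D pair 1 or without 3D pair 3 it passed (adjusted p = 0.0179 and 0.0125, limma), and it did not without 3D pair 2 (0.605) or without the replicate block (0.418). The next genes toward a smaller 3D ratio were SOX5 and NFX1, both at an adjusted p of 0.186. Toward a larger ratio the leaders of the rank test were ZNF226, NR6A1 and ZBTB16, all at an adjusted p of 0.874. Their median guide differences had the other sign (-0.55, -0.63 and -0.52), so these genes have no settled direction. FOXO1 had 2D pair medians of 0.90, 0.79 and -0.20, so that 2 of 3 pairs lay above 0 in each system, and its difference was 0.49 (adjusted p = 0.911). ARHGAP35 had -0.31, 0.20 and 0.35 in 2D, and GATA4 0.044, 0.22 and 0.12. On a common scaling the SD of guide differences was 1.34, 2.51 and 5.03 in the 3D pairs and 1.56, 1.10 and 0.921 in the 2D pairs (exact permutation test, 2-sided, p = 0.2; 3 pairs against 3 cannot give less than 0.1). Pair 1 of 3D thus lay within the range of the 2D pairs, and the wide pairs of 3D were those with thin libraries; whether the thin libraries account for the width was not tested. Leaving out pair 3, the 3D sort called FOXO1 and ARHGAP35 toward TNNT2- and no gene toward TNNT2+.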

How the data were processed

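Guide cassettes were amplified from genomic DNA and sequenced in 6 sorted 3D libraries; 6 libraries of the 2D sort entered the comparison of systems. The deposited values are a normalized signal per guide made by the authors, namely read counts scaled by a factor for each library: with the lowest nonzero value as unit, 100% of values were whole numbers (tolerance 0.001). The submitters' processing notes name MAGeCK and hg38, its version and settings being not given in the sources used here. CPM was computed from the recovered reads. PCR reads carry no molecular identifiers, so depth covers counting error only.

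The main test was limma (version 3.58.1, R 4.3.3) with a trend on log2(value + 10) and the replicate number as a block, over 11331 of 11364 guides with a mean value of at least 10. Genes with at least 3 such guides (1621) were tested by rank aggregation as in MAGeCK, with guides of 1-sided p under 0.25 entering, an exact order-statistic p, and Benjamini-Hochberg adjustment per direction at 0.05. A gene's value is the median over its guides, with the SD over guides; differences on the pseudocount scale understate changes of low guides. The protocols give the pairing (each differentiation sorted into both fractions). Residuals of same-numbered fractions, after subtracting the mean of each fraction, correlated at 0.0962, 0.0634 and 0.0625, none above 0.1. Different numbers gave values below 0, but the subtraction itself forces these below 0 on average when same numbers lie above 0. The pairing therefore rests on the protocols. Without the replicate block the count toward TNNT2+ was 0 and toward TNNT2- 1. Guide p-values measure the spread between these 3 differentiations. Gene p-values compare the ranks of a gene's guides, all from the same 6 libraries, with uniform ranks. They treat these guides as independent and do not directly measure the spread between differentiations. With the pairs as units, limma on the gene mean and on the gene sum called 0 genes in either direction.

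Named genes were the 8 leaders per direction, the 6 per direction with the largest least extreme pair median, the 4 per direction of pair 1, the 2 leading members of each of 13 lists, a fixed set (NKX2-5, GATA4, TBX5, MEF2C, HAND1, HAND2, ISL1, MESP1, EOMES, POU5F1, NANOG, FOXO1, KDM5B) and 3 per side of the 3D against 2D test. Members and lists were chosen with earlier results of these data known. Of 173 list genes, 7 had no guides. Gene positions are from RefSeq's GRCh38.p14 table, which held 1612 of 1633 target names as symbols. Alternatives covered pseudocount, filters, scaling, edgeR (version 4.0.16) and DESeq2 (version 1.42.0) on recovered reads, array weights, summed guides, no block, and each pair or library left out. Scripts were tested on simulated reads without thin libraries or differences between pairs, so that test gives no error rate for these data. Guide sequences were not used here, and 1 gene that the naming rule selects is not reported here.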

Additional observations from a re-analysis of the deposited data

How the results depend on the processing

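The count of 1 gene toward TNNT2+ (KDM5B) and of 0 toward TNNT2- held with pseudocounts of 1 and 100, no filter, TMM factors, control guide scaling, total-read scaling (chosen after seeing the data) and a rank threshold of 0.1. Toward TNNT2- the count was 1 (FOXO1) with no replicate block and among guides with at least 10 reads in all 6 libraries (where 1 other gene, ANHX, was called toward TNNT2+), and 1 (ARHGAP35) with array weights and with no block and the 3 thin libraries left out, a fit whose only TNNT2- library is assumed to vary like the TNNT2+ ones. Toward TNNT2+ it was 0 with no replicate block, with the thin libraries left out, edgeR, DESeq2, array weights, the guide mean and the guide sum. Leaving out 1 pair, or 1 library without the block, gave from 0 to 2 genes toward TNNT2- and from 0 to 1 toward TNNT2+. For guides the counts toward TNNT2- were 0 as reported, 1 with TMM factors, total-read scaling and array weights, 86 with DESeq2 and from 0 to 145 with 1 pair or library left out. Toward TNNT2+ they were 228 with DESeq2 and from 0 to 61. Genes with a smaller 3D than 2D ratio numbered 0 to 2 with 1 3D pair left out (CREB3L1 and KDM5B without pair 1, KDM5B and ZNF347 without pair 3). Without the block, the FOXO1 call ended without any 1 of TNNT2- replicates 1, 2 and 3 and TNNT2+ replicate 3 (adjusted p from 0.0723 to 0.74, limma).

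Of 63 named genes, 28 kept their sign in every alternative, and 150 of 1483 alternative values changed sign; the causes were not tested. With no replicate block and the 3 thin libraries left out, BARX1 at -0.78, HAND1 at 0.15, HAND2 at 0.16, MEOX2 at 0.35, MESP1 at 0.31, NEUROD1 at -1.10, NFYA at 0.45, NKX2-5 at -0.10, NR6A1 at 0.18, OLIG2 at -0.079, SMAD4 at 1.05, ZBTB7B at -1.14 and ZNF226 at 0.52 had the other sign. With edgeR, BARX1 at -0.18, MEOX2 at 0.43, POU5F1 at 0.14, TBX5 at 0.14, ZBTB7B at -0.45, ZNF226 at 0.58, ZNF329 at 0.45 and ZNF99 at 0.12 had the other sign. With DESeq2, BARX1 at -0.31, MEOX2 at 0.16, POU5F1 at 0.012, ZBTB7B at -0.34, ZNF226 at 0.52, ZNF329 at 0.37, ZNF7 at -0.51 and ZNF99 at 0.034 had the other sign. With array weights, BARX1 at -0.60, HAND1 at 0.14, NEUROD1 at -0.55, NKX2-5 at -0.29, NR6A1 at 0.42, SMAD4 at 0.80, ZBTB7B at -0.78 and ZNF226 at 0.50 had the other sign. With summed guide values, BARX1 at -0.19, DMRT1 at -0.36, EOMES at -0.83, ETS1 at -0.012, GMEB2 at -0.39, NEUROD1 at -1.05, NKX2-5 at -0.11, NR1I3 at -0.16, NR6A1 at 0.74, SMAD4 at 0.53, SMAD5 at -0.091, TBX5 at 0.30, ZBTB7B at -0.41, ZNF197 at -0.44, ZNF329 at 0.18 and ZNF7 at -0.30 had the other sign. With the mean over guides, EOMES at -0.18, NEUROD1 at -0.50, POU5F1 at 0.18, SMAD4 at 0.75, ZBTB7B at -0.28 and ZNF226 at 0.19 had the other sign. Among guides with at least 10 reads in all 6 libraries, GATA4 at -0.96, GMEB2 at -0.32, ZBTB7B at -0.27, ZNF197 at -0.22 and ZNF7 at -0.017 had the other sign. With a pseudocount of 100, MEOX2 at 0.042, SMAD4 at 0.056, TBX5 at 0.056 and ZNF329 at 0.072 had the other sign. With TMM factors, POU5F1 at 0.13, SMAD4 at 0.037 and ZNF329 at 0.24 had the other sign. With total-read scaling, POU5F1 at 0.096, ZBTB7B at -0.089 and ZNF329 at 0.20 had the other sign. With control guide scaling, ZBTB7B at -0.028 had the other sign. With 1 pair or library left out, ranges that cross 0 or the threshold were the 3D minus 2D difference of FOXO1 from -0.083 to 0.60, the 3D minus 2D difference of KDM5B from -4.29 to -2.58, the 3D minus 2D difference of NR6A1 from -1.20 to 0.31, ARHGAP35 from 0.21 to 1.80, BARX1 from -0.42 to 1.20, DMRT1 from -0.19 to 2.73, EOMES from -1.11 to 0.92, EPAS1 from -0.044 to 2.68, FLI1 from -0.92 to 0.069, FOXO1 from 0.29 to 2.41, FOXO4 from -0.76 to 1.03, GMEB2 from -0.54 to 1.51, HAND1 from -1.27 to 0.38, ISL1 from -1.88 to 0.11, KDM5B from -4.13 to -1.28, LHX5 from -0.82 to 1.29, MEOX2 from -1.69 to 1.33, MESP1 from -1.50 to 0.044, NEUROD1 from -0.91 to 2.73, NKX2-5 from -0.0047 to 1.69, NR1I3 from -0.39 to 2.51, NR6A1 from -1.37 to 0.73, POU5F1 from -0.96 to 0.29, PRDM14 from -2.16 to 0.23, SMAD4 from -0.98 to 1.45, SOX5 from -3.15 to 0.30, TBX5 from -1.76 to 0.69, ZBTB16 from -1.82 to 0.19, ZBTB7B from -0.60 to 0.36, ZNF197 from -0.18 to 0.93, ZNF226 from -1.40 to 1.23, ZNF329 from -0.43 to 1.403, ZNF684 from -1.23 to 0.45, ZNF7 from -0.29 to 1.64 and ZNF99 from -2.05 to 1.13. Total reads per library were alike, and the guides under 10 reads in the thin libraries set the depth limit.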
